A study of Mus musculus with 46 samples.

Results

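The livers of old and young mice were compared after a sham operation, the surgical control for removal of liver tissue; the labels describe the sham procedure no further. The arrays were chosen by their labels: 16 of the 46 arrays of the series came from sham-operated mice, 8 from old animals of 25 to 27 months and 8 from young animals of 5 to 6 months. Each age had 2 arrays at each of 0.5, 1, 2 and 4 h after sham surgery. All animals were male CB6F1 mice, anaesthetised with avertin and isoflurane. The old mice came from the National Institute on Aging and the young mice from Jackson Laboratories, so age and supplier cannot be told apart. The other 30 arrays, 15 old and 15 young, came from livers at 0 h (3 arrays per age) and from livers 0.5, 1, 2 and 4 h after partial hepatectomy (PH; 3 arrays per age and time), the surgical removal of most of the liver. Whether an array held RNA of a single separate animal is not in the labels. The p-values therefore rest on differences among arrays, part of which may be technical.

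Sham surgery in general exposes an animal to anaesthesia and an operation without loss of tissue. The liver answers injury and stress with the acute-phase response, in which hepatocytes secrete defence and transport proteins into the blood. Interferons raise a separate programme of antiviral and antigen-presentation genes through STAT proteins and interferon regulatory factors. Fatty acid oxidation in hepatocytes is driven by the nuclear receptor PPAR alpha, which is active during fasting. Much of hepatic metabolism follows the circadian clock, in which CLOCK and BMAL1 (encoded by Arntl) activate Per, Cry, Dbp and Tef, and the nuclear receptors REV-ERB and ROR repress and activate Arntl.

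Messenger RNA was measured on Affymetrix mouse GeneChip arrays, and all levels below are log2 values after robust multi-array averaging (RMA), for which 1 unit is a doubling. A difference is old minus young with the time after surgery as a block, fitted with limma and adjusted over all 12422 probe sets tested. The hepatocyte genes in the marker list had a mean level between 12.43 and 12.75 in old sham livers and between 12.53 and 12.61 in young sham livers, so all 16 arrays carried the labelled tissue. One array stood apart: the second old array at 1 h scored -29.15 on principal component 1 (22.64% of the variance), and it alone had Ccl2 at 7.999, against at most 5.72 in the other 15 arrays. The RNA quality controls also moved with age. The 3′ minus 5′ difference of the beta-actin control probe sets, which grows as RNA shortens, averaged 1.21 ± 0.13 in old and 0.966 ± 0.074 in young sham livers (SD, n = 8 each). It was higher in old at each time (exact two-sided permutation of age within time, p = 0.00154, the smallest that 1296 arrangements allow, adjusted p = 0.00772 over 5 measures). The same difference for pyruvate carboxylase averaged 1.76 ± 0.16 in old and 1.47 ± 0.15 in young (exact permutation p = 0.00617, adjusted p = 0.0154), whereas that of Gapdh did not pass (exact permutation p = 0.23). The counts of the main gene lists are therefore given also with the beta-actin difference as a covariate and without the array that stood apart.

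Of 12422 probe sets, 199 (1.6%) differed between old and young sham livers at a limma adjusted p under 0.05. There were 112 probe sets that were higher in old (0.902%) and 87 that were lower (0.7%). Differences were mostly modest, with a median size of 0.42 and a range of 0.21 to 2.41. Among the 12 that exceeded 1 log2 unit, 11 were higher in old. Of the 199, 51 had all 8 old arrays on one side of all 8 young arrays; over all probe sets, 0.354% had every old array above and 0.113% every old array below. At each of the 4 times taken alone, 119 of the 199 had no overlap of old and young, against 0.894% of all probe sets with old above at every time and 0.515% with old below. With 1 probe set per gene, 73 of 8251 genes (0.885%) were higher in old and 61 (0.739%) were lower, and the counts in the gene lists below are read against these shares. With the beta-actin covariate, 197 of the 199 probe sets kept their direction, at a median of 0.80 of their size. Their median standard error was 1.73 times as large. With this covariate 118 had an unadjusted limma p under 0.05 in the same direction, and 17 passed after adjustment. Its part in the differences was not tested. Without the second old array at 1 h, 180 of the 199 passed in the same direction.

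**Figure D1:**
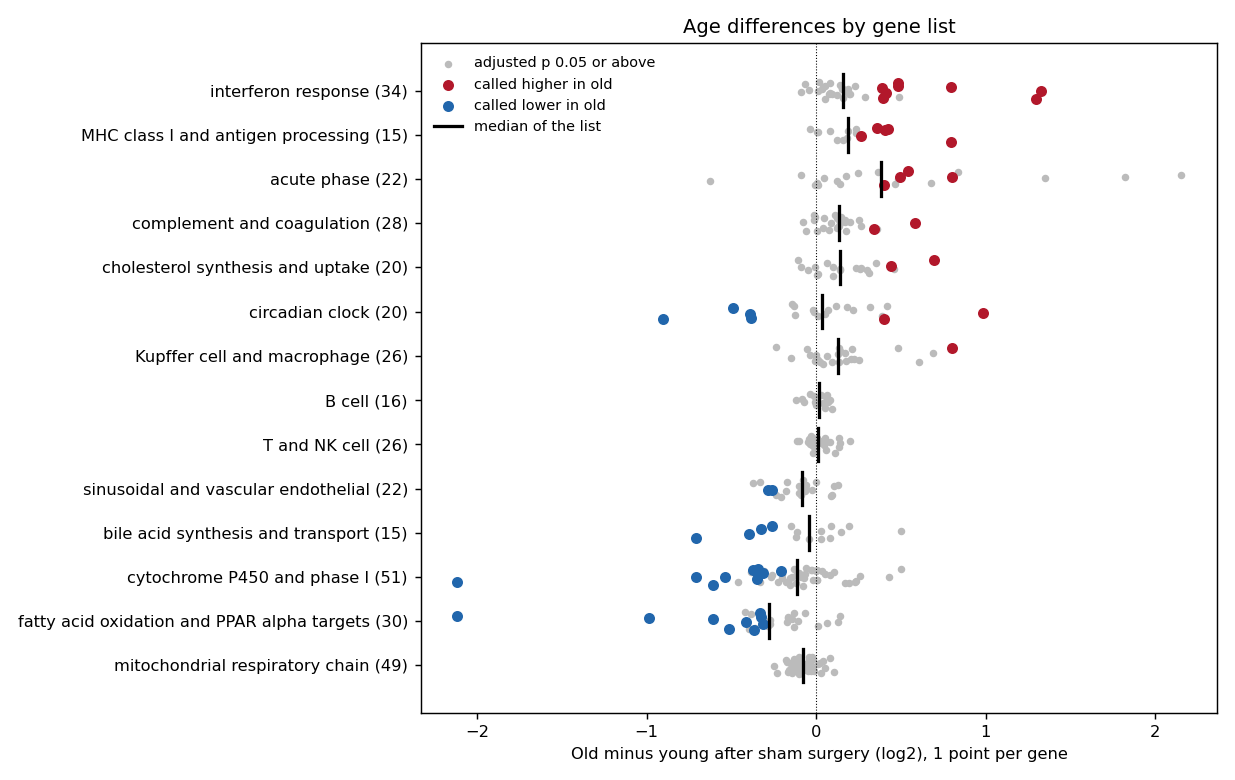
Age differences by gene list in the 16 sham arrays. Each point is 1 gene (log2, old minus young, from limma with time as a block), red where called higher and blue where called lower in old livers, and the black bars are list medians. The called interferon and MHC class I genes lie to the right of 0, those of fatty acid oxidation and cytochrome P450 to the left, and the clock genes on both sides.

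Interferon-inducible genes were higher in old sham livers. Of 34 measured members of this list, 8 rose and none fell (all genes: 0.885% higher), with a list median of 0.16, against 0.00 over all genes. Ly6e, a lymphocyte antigen 6 family protein anchored in the membrane, ranged from 11.96 to 12.93 in old livers (median 12.33) and from 10.83 to 11.24 in young livers (median 11.004). Every old array was above every young array. The difference was 1.33 ± 0.11 (SE, limma adjusted p = 5.00e-06), or 2.51-fold, and a second Ly6e probe set showed 0.04 and did not pass. The probe set that rose carries a suffix marking possible cross-hybridisation. Ifi27, a mitochondrial protein induced by interferon alpha, ranged from 10.20 to 11.23 in old livers (median 10.65) and from 9.16 to 9.53 in young livers (median 9.34). Again the groups did not overlap, and the difference was 1.30 ± 0.12 (adjusted p = 6.55e-06). Ifitm3, a membrane protein that hinders virus entry, was 0.48 ± 0.06 higher (adjusted p = 0.000386), and its 8 old arrays (11.42 to 11.76) lay above all 8 young arrays (10.92 to 11.24). Igtp, an interferon-gamma-induced GTPase, was 0.48 ± 0.10 higher, with old arrays at 6.29 to 7.07 and young arrays at 6.02 to 6.52, so these groups overlapped. Psmb8, described below, is the other member called. The regulators Irf9 (0.41 ± 0.07) and Irf7 (0.39 ± 0.10) and the ubiquitin-like Isg15 (0.39 ± 0.08) also passed. Irf7 did so in 1 of 2 probe sets, and its call was lost in 14 of the 16 fits that each left out 1 array; that of Isg15 was lost in 4. With the beta-actin covariate 2 of the 8 passed, namely Ly6e (1.26, adjusted p = 0.0129) and Ifi27 (1.58, adjusted p = 0.000899); without the array that stood apart 7 genes of the list passed, and without the first young array at 0.5 h 5 passed.

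The Ifitm3 promoter is shown because its copies of the interferon-stimulated response element lie beside the start of the gene. It is the RefSeq window on the minus strand of chr7:141010695-141010994 (GRCm38.p6), 250 bases before to 50 after the start, with each match in capitals (2 copies of GAAA with 2 bases between them); both strands were searched. The 2 matches begin 2 and 19 bases after the start.
Ifitm3: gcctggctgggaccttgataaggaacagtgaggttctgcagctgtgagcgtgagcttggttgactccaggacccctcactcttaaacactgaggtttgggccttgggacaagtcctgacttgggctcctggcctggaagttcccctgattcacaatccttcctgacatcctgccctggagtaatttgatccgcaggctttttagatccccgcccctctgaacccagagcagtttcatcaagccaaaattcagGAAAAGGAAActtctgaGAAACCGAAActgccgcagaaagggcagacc
This motif occurs in 3.44% of all 32851 promoter windows. It was found in 3 of the 6 interferon-list genes that rose and have a window and in 10 of the 20 that did not pass.

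Genes of antigen processing for MHC class I were higher as well. Of 15 measured members, 5 rose and none fell, and 14 of the 15 differences were positive (median 0.19). Psmb8, an inducible catalytic subunit of the immunoproteasome, which cuts proteins into peptides for presentation, ranged from 7.80 to 8.80 in old livers (median 8.07) and from 7.22 to 7.50 in young livers (median 7.32). All old arrays were above all young arrays (0.80 ± 0.11, limma adjusted p = 0.000566). The other inducible subunits Psmb9 (0.42 ± 0.09) and Psmb10 (0.41 ± 0.07) and the proteasome activator Psme1 (0.36 ± 0.06, 1 of 2 probe sets) rose as well. These 4 were the sole members called among 35 proteasome genes, whose median was -0.05. The class I heavy chain H2-D1 was 0.26 ± 0.06 higher in its brightest probe set, and all 3 of its probe sets rose; near-identical class I genes can share these probes. The second old array at 1 h had the highest H2-D1 level, 12.38, against 12.01 in the next old array. Without that array 5 members passed, without the first young array at 0.5 h or that at 1 h 3 passed, and none did with the beta-actin covariate. Leaving out 1 array at a time, the call of H2-D1 was lost in 11 of 16 fits and that of Psmb9 in 8.

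**Figure D2:**
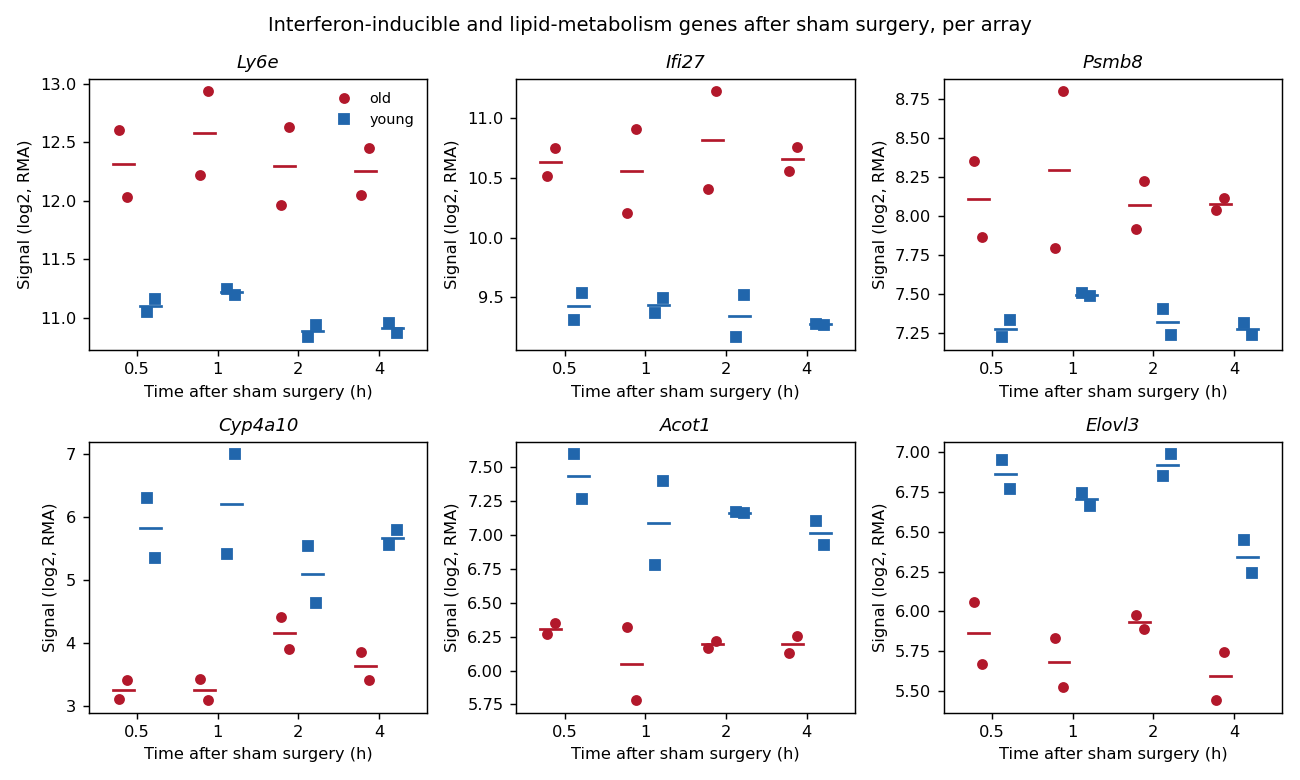
Per-array levels (log2) of 6 genes at 0.5, 1, 2 and 4 h after sham surgery, old as red circles and young as blue squares, with bars at the mean of 2 arrays. Ly6e, Ifi27 and Psmb8 are higher and Cyp4a10, Acot1 and Elovl3 lower in old livers at each time, with no overlap of all 8 old and all 8 young arrays.

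Some immunoglobulin transcripts were higher in old livers. Of 13 measured members of the immunoglobulin and plasma cell list 2 rose, Ighm and Jchain, and none fell; 9 differences were positive and 4 negative, and the list median was 0.02, against 0.00 over all genes. Larger rises were measured for kappa light chain probe sets outside that list. A probe set matching several kappa light chain genes, including Igkc, ranged from 10.12 to 12.40 in old livers (median 10.81) and from 8.21 to 9.04 in young livers (median 8.30), with no overlap. Its difference was 2.41 ± 0.24 (limma adjusted p = 2.19e-05). Igkv6-23, a kappa variable segment, was 2.13 ± 0.26 higher (adjusted p = 0.000161), with old arrays at 7.76 to 10.22 and young arrays at 6.199 to 6.95. Ighm, the mu heavy chain, was 0.90 ± 0.15 higher in 1 of 16 probe sets, with old arrays at 8.43 to 10.01 and young arrays at 7.87 to 8.17. Jchain, which joins secreted IgA and IgM, was 0.50 ± 0.12 higher (adjusted p = 0.0429). Its signal was dim, with a mean of 4.80 over the sham arrays, under the limit of 4.97 set for dim probe sets. The first old array at 0.5 h held the highest Igkv6-23 and Ighm levels. None of 16 B cell markers and none of 26 T and NK cell markers passed, at list medians of 0.02 and 0.01. Of 26 Kupffer cell and macrophage genes only Mpeg1, a pore-forming protein of phagocytes, passed (0.80 ± 0.09, 1 of 2 probe sets), with old arrays at 7.90 to 8.86 and young arrays at 7.38 to 7.81. Of the 26 differences in that list 19 were positive and 7 negative, from -0.24 to 0.80 (list median 0.13). Among the positive ones, those of Lyz2 (0.69, adjusted p = 0.164) and Ctss (0.61, adjusted p = 0.154) did not pass. In whole liver, more cells of a type and more RNA per cell cannot be told apart. None of these passed with the beta-actin covariate: the kappa probe set showed 1.45 (adjusted p = 0.153), Igkv6-23 1.06 (adjusted p = 0.431), Ighm 0.48 and Jchain 0.05, and Mpeg1 did not pass either (0.62). Jchain also lost its call in 11 of the 16 fits that left out 1 array.

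Some immune-related genes outside these lists rose too. The membrane proteins Tmem176a and Tmem176b, which lie beside each other and are expressed in myeloid cells, rose by 0.97 ± 0.15 and 0.75 ± 0.13 (limma adjusted p = 0.00225 and 0.0040). Both had all 8 old arrays above all 8 young arrays. The interferon-associated transcript AW112010 rose by 0.74 ± 0.12. Its level of 9.99 in the second old array at 1 h exceeded the next old array, at 8.97. Cd74, the MHC class II invariant chain, reached 10.55 in that array, against 8.18 to 8.97 in the other old arrays, and its difference of 0.56 ± 0.24 did not pass (adjusted p = 0.346). None of 20 dendritic cell and MHC class II genes passed. Of 28 complement and coagulation genes 2 rose, namely Hc, complement component 5 (0.58 ± 0.11), and Serping1, the C1 inhibitor (0.34 ± 0.07), both without overlap of the groups; without the array that stood apart 3 were called. None of these passed with the beta-actin covariate, where Tmem176a showed 0.39, Tmem176b 0.34, AW112010 0.60, Hc 0.16 and Serping1 0.16.

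Genes of fatty acid oxidation were lower in old sham livers. Of 30 measured members of the list of oxidation genes and PPAR alpha targets, 9 fell and none rose (all genes: 0.739% lower), and 26 of the 30 differences were negative (median -0.28). Cyp4a10, a fatty acid omega-hydroxylase, ranged from 3.08 to 4.41 in old livers (median 3.41) and from 4.63 to 6.99 in young livers (median 5.54). All 8 old arrays were below all 8 young arrays, and the difference was -2.12 ± 0.27 (limma adjusted p = 0.000292). The probe set carries a suffix marking possible cross-hybridisation. The signal was dim: 6.14% of probe sets had a lower median in old livers. Whether the signal stood above background there cannot be read from these values, so no fold is given. Its relative Cyp4a14 was 0.61 lower (-0.61 ± 0.14, adjusted p = 0.0403), with old arrays at 5.39 to 5.79 and young arrays at 5.59 to 6.71; this call was lost when any 1 of 11 of the 16 arrays was left out. The acyl-CoA thioesterase Acot1 ranged from 5.78 to 6.35 in old livers (median 6.24) and from 6.78 to 7.59 in young livers (median 7.16). The groups did not overlap, and the difference was -0.99 ± 0.09 (adjusted p = 8.10e-06). The peroxisomal thiolase Acaa1b (-0.52 ± 0.10) and the mitochondrial short-chain dehydrogenase Acads (-0.42 ± 0.07, 1 of 2 probe sets) were lower. The beta-oxidation enzymes Ech1, Hadhb, Eci1 and Eci2 fell by 0.31 to 0.37; leaving out 1 array at a time, Eci2 lost its call in 12 of 16 fits and Ech1 in 8. None of 49 respiratory chain genes passed, though 42 had negative differences (median -0.08). Acot1 passed with the beta-actin covariate (-0.97, adjusted p = 0.0202), whereas the other 8 did not; without the array that stood apart 9 members passed, and without the first young array at 0.5 h 6 members passed.

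Some enzymes of drug and bile acid metabolism were lower too. Of 51 cytochrome P450 and phase I genes, 9 fell and none rose (median -0.11); Cyp4a10 and Cyp4a14 are in this count too. Cyp8b1, the sterol 12-alpha-hydroxylase that sets the share of cholic acid, ranged from 9.58 to 10.33 in old livers (median 10.09) and from 10.41 to 11.002 in young livers (median 10.77). The groups did not overlap (-0.71 ± 0.11, limma adjusted p = 0.00143). Cyp2b10, a target of the receptor CAR, was -0.54 ± 0.06 (adjusted p = 6.14e-05), with old below young at each of the 4 times, but its level also varied with time (F test adjusted p = 4.53e-09), so the ranges of 7.30 to 8.99 in old and 7.81 to 9.53 in young overlapped. Cyp3a16 was -0.37 ± 0.07, and Cyp1a2, Ephx2, Cyp4b1 and Cyp4f13 fell by 0.21 to 0.35; Ephx2 lost its call in 12 and Cyp4f13 in 10 of the 16 fits without 1 array. In the bile acid list 4 of 15 members fell and none rose, while 7 differences were positive and 8 negative (median -0.04). Beside Cyp8b1 these were the basolateral exporter Abcc3 (-0.40 ± 0.08), the repressor Nr0b2, also called SHP (-0.33 ± 0.07), and the early-step enzyme Hsd3b7 (-0.26 ± 0.06). The P450 list had 9 members called without the array that stood apart, 5 without the first young array at 0.5 h, and 1 with the beta-actin covariate, the dim Cyp3a16 (-0.58, adjusted p = 0.0415). The bile acid list had 3 called without the array that stood apart, 2 without the first young array at 0.5 h or that at 1 h, and 0 with either RNA quality covariate; Hsd3b7 lost its call in 12 of 16 fits without 1 array.

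A few genes of lipid synthesis moved, in both directions. Of 29 measured genes of fatty acid and triglyceride synthesis 1 rose and 2 fell, with a list median of 0.02. Elovl3, an elongase of very long-chain fatty acids, ranged from 5.44 to 6.06 in old livers (median 5.79) and from 6.24 to 6.99 in young livers (median 6.76). The groups were fully separated, and its difference of -0.94 ± 0.07 had the smallest p among probe sets with 1 gene symbol (limma adjusted p = 2.81e-06). Elovl2, which extends polyunsaturated fatty acids, was -0.74 ± 0.13, also without overlap. Opposite in sign were Fasn, the fatty acid synthase (0.48 ± 0.08), Sqle, the squalene epoxidase (0.70 ± 0.12), and Hmgcs1, an early enzyme of cholesterol synthesis (0.44 ± 0.10). Sqle and Hmgcs1 were the 2 of 20 cholesterol genes called; 16 of the 20 differences were positive (median 0.14). The count was 4 without the array that stood apart, 1 without the first young array at 0.5 h and 0 with the beta-actin covariate, and Hmgcs1 lost its call in 8 of 16 fits without 1 array. Apoa4, an apolipoprotein of triglyceride-rich particles, was 0.84 ± 0.10 higher (adjusted p = 0.000161), with old above young at each of 4 times. Serpina12, the adipokine vaspin, was 1.10 ± 0.15 higher (adjusted p = 0.000426) and had all 8 old arrays (8.63 to 10.04) above all 8 young arrays (8.13 to 8.61). Elovl3, Apoa4 and Serpina12 also passed with the beta-actin covariate, at -1.06, 1.003 and 1.71, whereas Elovl2 (-0.58) and Fasn (0.51) did not.

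Clock genes changed in both directions. Of 20 measured members, 2 rose and 4 fell in old sham livers, and the list median was 0.03. Arntl, the gene of BMAL1, ranged from 5.33 to 6.63 in old livers (median 5.70) and from 6.08 to 7.23 in young livers (median 6.67). Old was below young without overlap at each of the 4 times, and the level also varied with time (F test adjusted p = 0.0124). The difference was -0.90 ± 0.11 (limma adjusted p = 0.000127). Its partner Clock was -0.38 ± 0.07, the repressor Cry1 -0.49 ± 0.08 in 1 of 3 probe sets, and the activating receptor Rora -0.39 ± 0.07 in 1 of 2 probe sets (adjusted p = 0.00472, 0.0040 and 0.00485). Dbp, a clock-controlled transcription factor, ranged from 5.10 to 6.77 in old livers (median 6.16) and from 4.78 to 5.24 in young livers (median 5.05). The young arrays were nearly level, whereas the old arrays were high at 2 and 4 h and in the second array at 0.5 h, and the difference was 0.98 ± 0.20 (adjusted p = 0.016). Usp2, a rhythmic deubiquitinating enzyme, was 0.40 ± 0.09 higher (adjusted p = 0.0404) in 1 of 2 probe sets, with old arrays at 6.86 to 7.94 and young arrays at 6.74 to 7.28; the call was lost when any 1 of 13 of the 16 arrays was left out. Tef, a relative of Dbp, had a difference of 0.32 ± 0.08 just outside the threshold (adjusted p = 0.0513), and the dim Per2 had 0.22 (adjusted p = 0.103). With the beta-actin covariate Dbp (1.89), Tef (0.64) and Arntl (-1.26) passed and the other clock genes called did not. Without the array that stood apart 3 members were higher and 4 lower, and without the first young array at 0.5 h or the first old array at 2 h 1 was higher and 4 were lower. The hour of day at which livers were collected is not in the labels, and its part in these differences was not tested.

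**Figure D3:**
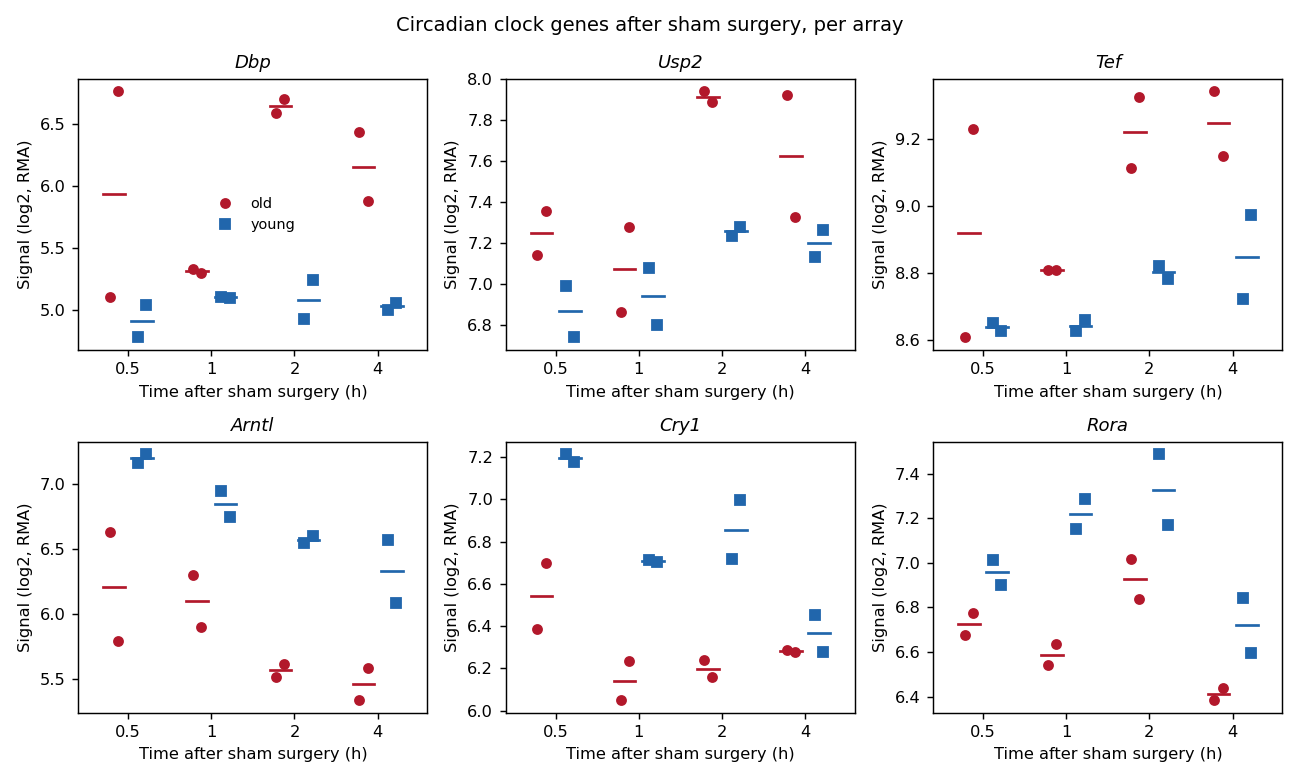
Per-array levels (log2) of 6 clock genes at 0.5, 1, 2 and 4 h after sham surgery, old as red circles and young as blue squares, with bars at the mean of 2 arrays. The old mean lies above the young mean for Dbp and Usp2 at every time, by the least at 1 h. It lies below the young mean for Arntl, Cry1 and Rora at every time, for Cry1 by the least at 4 h.

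The promoters of Arntl and Cry1 are shown because each holds a clock element, given in capitals; both are RefSeq windows of 300 bases on GRCm38.p6. That of Arntl is the second of its 2 windows, on the plus strand of chr7:113207261-113207560, with the ROR element TAGGTCA starting 30 bases after the start of the gene. That of Cry1 lies on the minus strand of chr10:85185005-85185304, with the E-box CACGTG starting 60 bases before it.
Arntl: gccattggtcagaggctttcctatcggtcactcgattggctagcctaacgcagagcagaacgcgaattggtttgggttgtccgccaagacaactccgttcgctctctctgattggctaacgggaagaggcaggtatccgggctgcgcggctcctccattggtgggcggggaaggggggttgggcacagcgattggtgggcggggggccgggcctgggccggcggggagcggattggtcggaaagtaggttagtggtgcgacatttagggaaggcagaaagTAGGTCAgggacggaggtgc
Cry1: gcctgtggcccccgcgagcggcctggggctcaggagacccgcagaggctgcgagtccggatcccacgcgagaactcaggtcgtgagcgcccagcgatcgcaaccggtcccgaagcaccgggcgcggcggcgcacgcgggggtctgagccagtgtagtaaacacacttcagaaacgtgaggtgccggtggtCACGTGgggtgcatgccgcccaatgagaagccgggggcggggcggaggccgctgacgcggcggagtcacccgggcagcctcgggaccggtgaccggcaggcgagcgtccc
Over all windows, searched on both strands, TAGGTCA occurs in 2.61%, CACGTG in 7.15% and the D-box TTATGTAA in 0.938%. Of the 16 clock genes with a window, 2 held TAGGTCA (Arntl and Nfil3), 3 held CACGTG (Cry1, Per1 and Tef) and 1 held TTATGTAA (Per3). No window of Dbp, Usp2, Clock or Rora held any of these letters.

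Some acute-phase genes were higher in old sham livers. Of 22 measured members, 4 rose and none fell, 19 of 22 differences were positive, and the list median was 0.38. Apcs, the mouse acute-phase pentraxin, averaged 11.34 in old and 10.18 in young livers at 0.5 h, and 11.68 in old and 11.38 in young livers at 4 h. Over all times it was 0.80 ± 0.16 higher (limma adjusted p = 0.017), and its ranges overlapped (10.61 to 12.002 in old, 10.04 to 11.43 in young). The heme carrier Hpx (0.54 ± 0.11), the inhibitor heavy chain Itih4 (0.49 ± 0.12) and the haemoglobin carrier Hp (0.40 ± 0.09) also rose. Lcn2, an iron-siderophore binding protein, held 10.47 and 5.51 in the 2 old arrays at 0.5 h, against 5.05 and 4.78 in the young arrays. At 1 h it held 9.29 and 10.78 in old and 5.46 and 5.76 in young, and at 4 h 11.11 and 11.86 in old and 11.16 and 11.29 in young. The groups were thus apart at 0.5 and 1 h and overlapped at 2 and 4 h; over all times the difference was 2.15 ± 0.62 and did not pass (adjusted p = 0.107). Saa2, a serum amyloid A gene, held 12.74 and 8.17 in old and 7.31 and 7.83 in young arrays at 0.5 h, and its difference of 1.35 ± 0.49 did not pass either (adjusted p = 0.242). For neither gene did limma's F test of age by time pass (adjusted p = 0.924 for both).

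For the old arrays, the beta-actin control is set here beside Lcn2 and Saa2, which did not pass, and the 4 acute-phase genes called. At 0.5 h the first old array had a 3′ minus 5′ difference of 1.39, and the second old array had 1.02, against 0.882 and 0.960 in the young arrays. The first old array had the higher Lcn2, Saa2, Apcs, Itih4, Hpx and Hp. At 2 h too the old array with the higher difference (1.17 against 1.05) had the higher level of all these genes. At 1 h (1.33 against 1.25) it had the higher Saa2, Apcs and Itih4 and the lower Lcn2, Hpx and Hp. At 4 h, with nearly equal values of the control (1.24 against 1.23), it had the lower level of all of them. With that difference as a covariate none of the 4 acute-phase genes passed, Apcs and Itih4 were at 0.00 and -0.02, and Lcn2 and Saa2 changed sign to -0.96 and -1.25 (adjusted p = 0.811 and 0.431). Its part in the acute-phase differences was not tested. Without the array that stood apart 5 members passed, without the second old arrays of 0.5 and 1 h together 9 passed, and without the first young array at 0.5 h none did. Leaving out 1 array at a time, Itih4 lost its call in 12 of 16 fits, Hp in 4, Hpx in 3 and Apcs in 1. Of 17 neutrophil markers, among which Lcn2 and Hp are counted, Hp alone passed, and the mean level of the list had a median of 6.76 in old and 6.55 in young livers, with overlapping ranges.

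**Figure D4:**
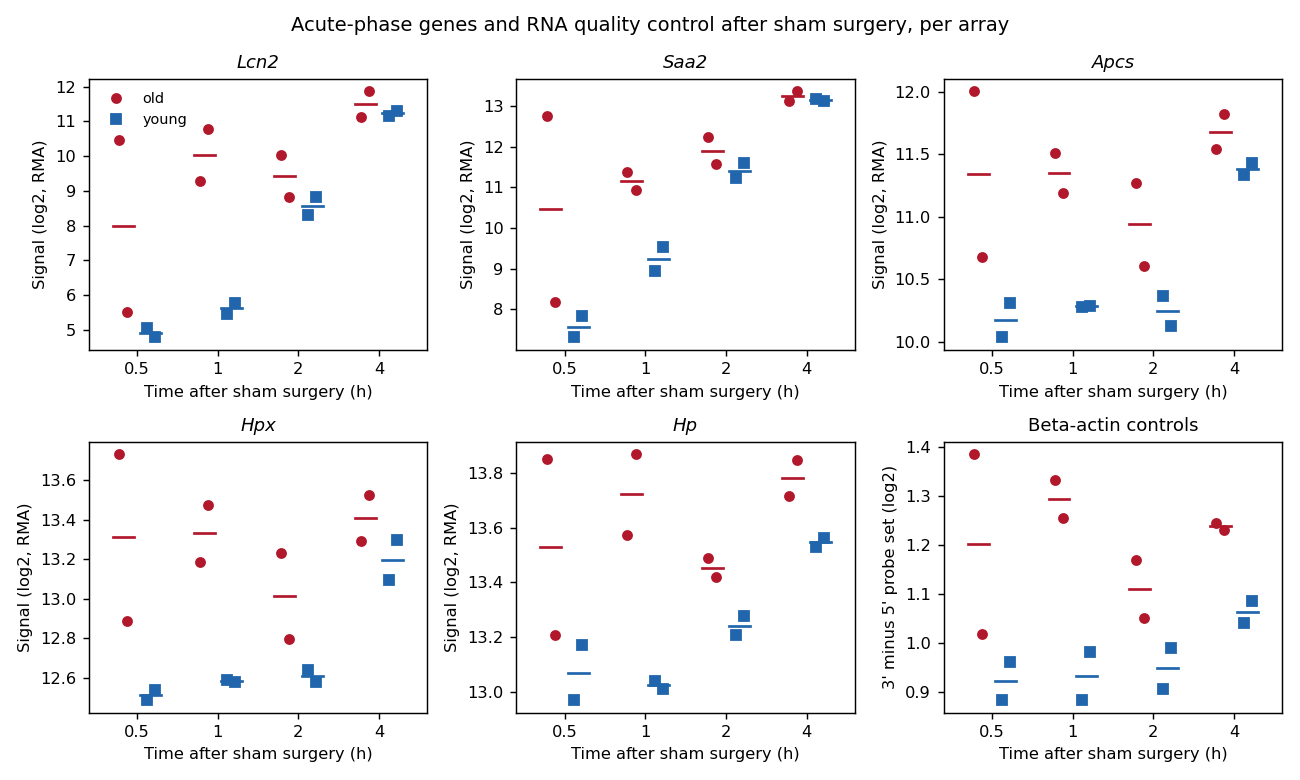
Per-array levels (log2) of 5 acute-phase genes and the 3′ minus 5′ difference of the beta-actin controls at 0.5, 1, 2 and 4 h after sham surgery, old as red circles and young as blue squares, with bars at the mean of 2 arrays. Lcn2 and Saa2 reach similar levels in both ages by 4 h, and at 0.5 h the first old array lies above the second old array in all 6 panels.

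Several single genes outside these lists stood out. Noct, a circadian gene also called nocturnin, ranged from 10.35 to 10.78 in old livers (median 10.59) and from 8.43 to 9.59 in young livers (median 9.11). The groups were separated by a wide gap, and the difference was 1.54 ± 0.12 (limma adjusted p = 2.81e-06). All 3 of its probe sets rose, but other probe sets that rose list Noct together with Sgip1 or Cog6, so the source of this signal is uncertain. Nnt, the mitochondrial transhydrogenase, ranged from 6.998 to 8.02 in old livers (median 7.66) and from 8.21 to 8.66 in young livers (median 8.39). It was lower in every old array than in any young array (-0.79 ± 0.11, adjusted p = 0.000566). Old and young mice came from different suppliers, and for this gene a difference between the suppliers' mice cannot be told apart from one of age. Retsat, a retinol saturase, was -0.79 ± 0.15. Gclc, the catalytic subunit of glutathione synthesis, was -0.58 ± 0.09, and the cyclin G2 gene Ccng2, a FOXO target, was -0.66 ± 0.06 (adjusted p = 1.41e-05). Among cell cycle and p53 genes Ccng2 and Cdkn1a (-0.31 ± 0.07, 1 of 2 probe sets) were the sole ones called. The tubulins Tubb2a (-0.81 ± 0.16) and Tubb5 (-0.49 ± 0.08) fell, each in 1 of 2 probe sets, and the actin-severing protein Gsn rose (0.73 ± 0.13). Nampt, which makes NAD precursors, was 0.44 ± 0.11 higher (adjusted p = 0.0467). Of 42 immediate early genes 1 fell, Klf10 (-0.37 ± 0.08), and of 29 gluconeogenesis and cAMP-response genes G6pc, glucose-6-phosphatase, fell (-0.42 ± 0.10) beside Cdkn1a. Leaving out 1 array at a time, Cdkn1a lost its call in 14 of 16 fits, Nampt and G6pc in 12 each and Klf10 in 5. Noct passed with the beta-actin covariate (1.68), whereas Nnt, Retsat, Gclc, Ccng2, Cdkn1a, Tubb2a, Tubb5, Gsn, Nampt, Klf10 and G6pc did not.

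A few endothelial genes were lower in old livers. In the sinusoidal and vascular endothelial list 2 of 22 members fell, the scavenger receptor Stab1 (-0.26 ± 0.06) and Bmp2 (-0.28 ± 0.06, 1 of 3 probe sets), and 18 differences were negative. The mean level of the list ranged from 6.06 to 6.15 in old livers and from 6.16 to 6.26 in young livers. The groups were thus apart by a narrow margin, with 6.150 in the highest old and 6.158 in the lowest young array. The means of the MHC class I and interferon lists did not overlap either, with old above young. That of fatty acid oxidation did overlap, with up to 8.59 in old and down to 8.53 in young livers. The caveolar protein Cavin2 (-0.62 ± 0.12), the water channel Aqp1 (-0.41 ± 0.08, 1 of 2 probe sets) and the chloride channel protein Clic4 (-0.29 ± 0.06, 2 of 3 probe sets) were lower too. Cavin2, Aqp1 and Clic4 are not in that list. The signals of Cavin2 (mean 4.28 over the sham arrays) and Bmp2 (4.95) were dim, under the limit of 4.97 set for dim probe sets. Aqp1 is counted among the cholangiocyte and progenitor genes, where it was the sole member called of 20 (list median 0.01). Stab1 lost its call in 10 of 16 fits without 1 array, and Bmp2 and Clic4 in 7 each. The endothelial list had 3 members called without the array that stood apart, 0 without the first young array at 0.5 h and 0 with the beta-actin covariate, with which none of these genes passed. The endothelial markers Pecam1 (0.08) and Cdh5 (-0.10) did not pass. No member passed among 42 stellate cell and matrix genes (median 0.00), 29 cytoplasmic ribosomal protein genes (median 0.00), 27 ribosome biogenesis genes (median 0.02), 29 heat shock and chaperone genes (median -0.04), 37 chemokine and cytokine genes (median 0.08) or 29 amino acid and urea cycle genes (median -0.09).

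Tested at single times with 2 arrays per age, few probe sets passed: 15 (0.121%) at 0.5 h, 10 (0.0805%) at 1 h, 16 (0.129%) at 2 h and 3 (0.0242%) at 4 h. These counts moved with single arrays. Leaving out 1 array leaves a lone array in its group, which is then assumed to vary like the other groups, so the values describe the counts' instability and are no test of that time. At 0.5 h the fit called 96 higher and 48 lower without the second old array, and 3 and 0 without the first young array. At 1 h it called 759 higher and 647 lower without the first old array, and 0 and 3 without the second. At 2 h it called 1 to 28 higher, and at 4 h 0 to 8. The F test of age by time called 1 probe set (0.00805%), an unnamed one, and 577 had an unadjusted p under 0.05. That probe set was lower in old by -0.45 at 0.5 h and -0.83 at 1 h, higher by 0.51 at 2 h, and differed by 0.072 at 4 h. Without the second old array at 0.5 h the test called 16 probe sets, and without the first old array at 1 h it called 12. Of the 199 probe sets that differed by age, 30 also varied with time since surgery in the same arrays, against 2.72% of all probe sets.

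The same age comparison in the 30 arrays at 0 h and after PH shares no array with the sham comparison. It called 1214 probe sets (9.77%), 662 higher and 552 lower in old; over genes, 5.83% were higher and 4.62% lower. Of the 34 interferon genes 19 were higher there, of the 22 acute-phase genes 10 were higher, and of the 30 fatty acid oxidation genes 8 were lower and 1 was higher. Of the 199 called after sham, 115 were called there too, 114 in the same direction, which is 57.3% of the sham calls and 9.39% of the calls in the other arrays. Of the 112 probe sets higher after sham, 90 were called higher there, and of the 87 lower after sham, 24 were called lower; these shares were not tested against each other. Ifi27 differed by 1.09 ± 0.08 in those arrays and by 1.30 ± 0.12 after sham. Ly6e differed by 1.15 ± 0.10 there, Psmb8 by 0.73 ± 0.11 and Mpeg1 by 0.91 ± 0.12, all past the threshold. Igkv6-23 differed by 3.15 ± 0.36 there. Acot1 (-0.65 ± 0.11), Cyp8b1 (-0.74 ± 0.22) and Nnt (-0.47 ± 0.06) were lower there too. Cyp4a10 (-0.93 ± 0.33, adjusted p = 0.0703) and Elovl3 (-0.33 ± 0.19, adjusted p = 0.258) did not pass, and neither did Ccng2 (0.13 ± 0.15) or Gclc (0.21 ± 0.13).

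**Figure D5:**
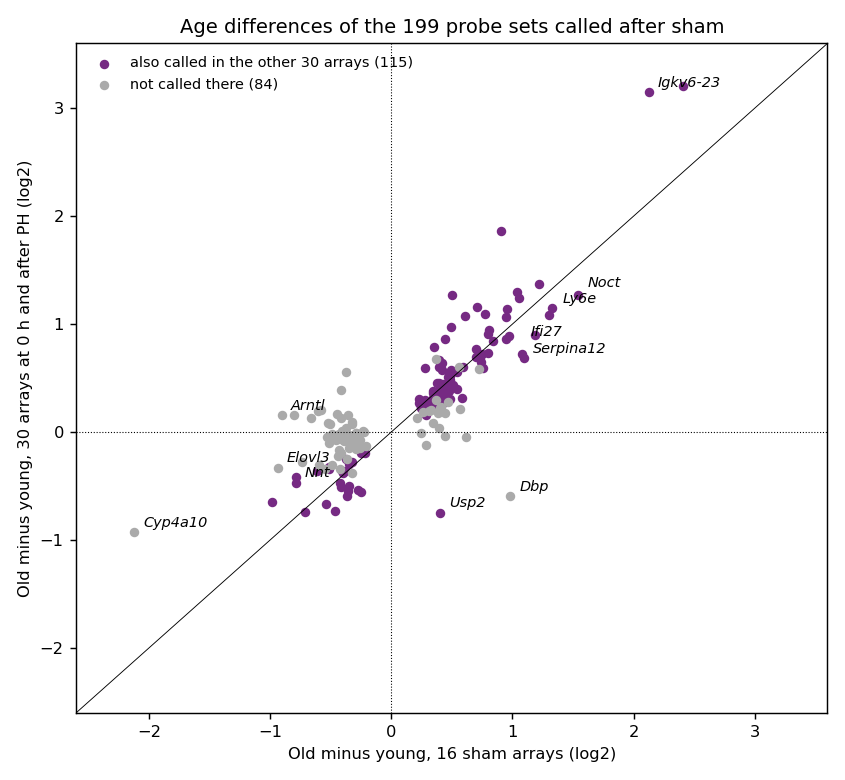
Age differences (log2, old minus young) of the 199 probe sets called after sham surgery, in the 16 sham arrays on the x axis and in the 30 arrays at 0 h and after PH on the y axis, with the line of equality. Purple points (115) were also called in the other arrays, and Usp2 is the 1 called with the opposite sign. Of the 112 probe sets higher after sham, 106 had a positive difference in the other arrays, and of the 87 lower, 69 had a negative difference. Dbp and Arntl are among those that change sign.

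For the clock gene Usp2 the age difference itself differed between the sham and the other arrays. It was -0.75 ± 0.15 there (limma adjusted p = 0.0017), against 0.40 ± 0.09 after sham, and it was the 1 probe set called in opposite directions. A test of the sham difference minus that in the other arrays called 2 probe sets (0.0161%), both of Usp2, at 1.15 ± 0.19 (adjusted p = 0.00792) and 0.96 ± 0.15 (adjusted p = 0.00224). The count was not stable, as the same test called more probe sets when the first old sham array at 1 h was left out. The array that stood apart is then alone in its group and is assumed to vary like the other groups. That fit is therefore no test of the sham difference minus that in the other arrays. For Dbp, -0.60 ± 0.25 in the other arrays, that difference was 1.58 and did not pass (adjusted p = 0.13), nor did it for Arntl (0.16 ± 0.18 there). In young livers 0.5 h after PH, Usp2 averaged 8.48, Dbp 7.42 and Arntl 5.50, against 7.39, 5.33 and 6.81 in young livers at 0 h. In old livers these genes averaged 6.96, 5.44 and 6.71 at 0.5 h after PH and 6.82, 5.38 and 6.79 at 0 h.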

How the data were processed

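The authors deposited 1 table of log2 expression values for 12488 probe sets on 46 arrays, made with robust multi-array averaging (RMA) per the submitters' processing notes, with no version given there. The deposited log2 values were used unchanged; quantile scaling within RMA sets a common distribution, so levels are relative. Leaving out 66 control probe sets, 12422 were tested: 10833 carry 1 gene symbol, 396 several and 1193 none in GEO's platform annotation. Sequencing depth does not apply; the number of arrays limits precision.

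Differences were fitted with limma 3.58.1 in R 4.3.3 (lmFit, eBayes), old minus young with time as a block, Benjamini-Hochberg adjusted, threshold 0.05. The fit was tested on simulated data. Time-wise, F and sham-minus-other contrasts used group means. A gene is represented by its brightest probe set.

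Members and gene lists were chosen with earlier results of these data known. Named genes are the 15 largest rises and falls, up to 5 called members per list and a preset list; Clock, Irf7, Irf9, Isg15, the beta-oxidation and P450 genes given as ranges, the non-passing Lyz2, Ctss, Pecam1, Cdh5 and the probe sets with several symbols were chosen after their values were seen. Replicate numbers come from the labels; between 28 pairs of sham groups same-numbered arrays deviated together with correlations of -0.15 to 0.37 (mean 0.02), so numbers were not taken as pairs. Alternatives varied scaling, dim probe sets, moderation, weights, arrays, times, the replicate block and, chosen after seeing the data, the RNA quality covariates. Promoters come from RefSeq (GRCm38.p6).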

Additional observations from a re-analysis of the deposited data

Results flagged for a closer look

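Among 134 groups of 8 arrays, 11 had 1 array whose gap to the next exceeded the critical share of the range. For 8 like values, chance gives such a gap in about 1 in 20 groups. Each group here pools 4 times after surgery, so that rate does not hold for genes whose level changes with time. The second old array at 1 h was the highest for AW112010 (9.99), Cd74 (10.55), H2-D1 (12.38) and Abcc3 (10.15), and the lowest for Elovl2 (6.60) and Acot1 (5.78). The first old array at 0.5 h was the highest for Igkv6-23 (10.22) and Ighm (10.01), and the second old array at 0.5 h was the lowest for Saa2 (8.17). The young arrays at 0.5 h held Saa2 at 7.31 and 7.83, against 13.16 and 13.12 at 4 h, so this flag may reflect the time. Among young arrays, the first at 4 h was the highest for Igkv6-23 (6.95) and the second at 2 h was the lowest for Psmb10 (8.20).

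A difference in the age effect between sets of arrays was found for Usp2, in both probe sets: after sham minus the other arrays it was 1.15 and 0.96. The age effect differed between times for 1 unnamed probe set, at -0.45 (0.5 h), -0.83 (1 h), 0.51 (2 h) and 0.072 (4 h).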

How the results depend on the processing

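The sham comparison called 112 probe sets higher and 87 lower in old. It called 60 and 35 with all 46 arrays fitted, 191 and 174 with array weights, 59 and 23 without 0.5 h, 40 lower without 1 h, 70 higher without 2 h, and 56 and 33 without 4 h. With the beta-actin covariate it called 14 and 4, and with the pyruvate carboxylase covariate 28 and 16. Leaving out 1 array gave 65 to 137 higher and 43 to 162 lower, with 65 and 43 without the first young array at 0.5 h, 52 lower without the first young array at 1 h and 162 lower without the first old array at 2 h. Leaving out 1 array gave 3 to 96 higher and 0 to 48 lower at 0.5 h, 0 to 759 and 0 to 647 at 1 h, 1 to 28 and 0 to 10 at 2 h, and 0 to 8 and 0 at 4 h. It gave 0 to 16 for age by time, 202 to 481 for time, 522 to 774 higher and 356 to 755 lower in the other arrays, and 2 to 115 higher and 0 to 44 lower for sham minus other. The quality differences then ranged from 0.199 to 0.291 (beta-actin), -0.111 to 0.0905 (beta-actin 3′), 0.0321 to 0.099 (Gapdh), 0.255 to 0.324 (pyruvate carboxylase) and -0.000754 to 0.0942 (spike-ins). At 0.5 h median centring called 3 lower, and trend and robust moderation 4 higher and 3 lower. Sham minus other called 1 lower without the dimmest probe sets and 1 with trend and robust moderation. With the beta-actin covariate Apcs (-0.00143), Itih4 (-0.0215), Lcn2 (-0.960) and Saa2 (-1.25) changed sign, as did Saa2 (-0.186) with that of pyruvate carboxylase; the cause was not tested. With the replicate block 118 were higher and 88 lower, with 16 higher at 0.5 h and 1 lower at 4 h; Nampt was lost (adjusted p = 0.0547), Tef was called (adjusted p = 0.0444), and no other named gene changed its call. Of 75 named genes and probe sets past the threshold, 48 passed without each array in turn and 8 under every alternative that tested them (probe sets with a cross-hybridisation suffix or a dim signal were left out of 1 alternative each): Ly6e, Ifi27, Noct, Serpina12, Apoa4, Arntl, Acot1 and Elovl3. Among these 8, the Ly6e probe set carries such a suffix and was left out of that alternative. Having 2 arrays per age and time limits the tests at single times.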
